A study of Sus scrofa with 10 samples.

Results

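The circadian clock genes of the pig ovary were examined in gilts given recombinant porcine follicle-stimulating hormone (rpFSH) and in control gilts. The set held 10 genes, namely CLOCK, ARNTL (also called BMAL1), PER1, PER2, PER3, CRY1, CRY2, NR1D1, NR1D2 and DBP, out of 19972 protein-coding loci among 43499 gene loci in the expression table. They were found as protein-coding loci carrying the gene symbol, which gave 9 loci. PER1 was found through its Ensembl identifier, ENSSSCG00000017983, because its locus carried that identifier in place of a symbol. All 10 loci passed the filter of a mean of 0.1 FPKM (fragments per kilobase of transcript, scaled to the size of the library) over the pigs, as did 15170 protein-coding loci in all.

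RNA was sequenced from whole ovarian tissue of 10 gilts aged 234 days, 5 in each group. Every gilt had been fed altrenogest, an oral progestin that holds back oestrus, at 20 mg per day for 18 days from day 210 and had been off it for 2 days. The rpFSH gilts then received 1000 IU of the hormone (spelled fpFSH in the sample labels). The control gilts are labelled as untreated and received saline according to the study's methods. Follicles at the surface had been removed, so the samples held the remaining ovarian tissue. The time of day of collection, on which clock transcripts depend, was not given in the sources used here. Each gilt was 1 biological replicate.

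The mammalian clock is a transcriptional feedback loop that runs in nearly every cell. CLOCK and ARNTL form a heterodimer that binds E-box elements and switches on the PER and CRY genes, whose proteins return to the nucleus and repress the dimer. NR1D1 and NR1D2 (REV-ERB alpha and beta) are nuclear receptors that repress ARNTL, and DBP is an output transcription factor driven directly by the dimer. In the ovary clock genes are expressed in granulosa, theca and luteal cells.

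The 10 libraries held from 65166187 to 75114003 gene counts in the control group and from 64873797 to 74656992 in the rpFSH group. Every clock gene had at least 455 counts in every pig, and the highest count was 13325. Cell type markers differed widely between pigs. The summed FPKM of 3 luteal markers ran from 10.6 to 2473 in the control pigs and from 15.9 to 1359 in the rpFSH pigs, with control replicate 2 and rpFSH replicates 1 and 4 highest. For 4 smooth muscle markers the sum ran from 49.7 FPKM in control replicate 2 to 1210 FPKM in control replicate 5. In the rpFSH pigs the smooth muscle sum ran from 122 to 337 FPKM. Control replicate 2 was also the lowest of 10 pigs for 4 granulosa markers (3.41 FPKM). The summed FPKM of 5 ciliated epithelium markers ran from 2.58 to 40.8 in the control pigs, highest in control replicates 2 and 5, and from 1.00 to 2.41 in the rpFSH pigs (exact permutation p = 0.00794, the smallest that 5 against 5 allows). Of these 5 markers, 4 had an unadjusted edgeR P under 0.05, all lower in the rpFSH pigs, as were 3.21% of all mRNAs tested. The study had already reported cilium and axoneme terms from these data, and the list was chosen with earlier results known. The ciliated values are therefore a description only. For the other cell type lists the exact permutation p of the sum ran from 0.214 (theca) to 0.968 (smooth muscle), with no adjustment over the lists. In bulk tissue fewer cells of a type and less RNA per cell cannot be told apart.

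NR1D2 had the highest level per unit of assembled length, at 20.9 ± 6.10 FPKM (mean ± SD, n = 10 pigs). CLOCK followed at 5.71 ± 0.482 FPKM. Both steps, from NR1D2 to CLOCK and from CLOCK to ARNTL at 3.70 ± 0.672 FPKM, held in 10 of 10 pigs, and the ranges did not overlap. Below ARNTL the neighbours overlapped. CRY2, PER3 and PER1 lay at 3.48 ± 0.790, 3.45 ± 1.36 and 3.42 ± 0.871 FPKM, and each was above the next in only 6 to 8 of 10 pigs. The lowest means were those of CRY1 (2.52 ± 0.456 FPKM), NR1D1 (2.23 ± 0.963 FPKM), PER2 (1.96 ± 0.872 FPKM) and DBP (1.57 ± 0.470 FPKM), again with overlapping ranges. The lengths implied by counts and FPKM differed widely. They were 27.4 kb for CLOCK, 26.3 kb for PER3, 17.5 kb for PER1 and 15.5 kb for CRY2, but 6.5 kb for NR1D2 and 4.6 kb for CRY1. The order of levels therefore holds only for these assembled loci, and those of CRY2 and DBP also held other genes.

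**Figure D1:**
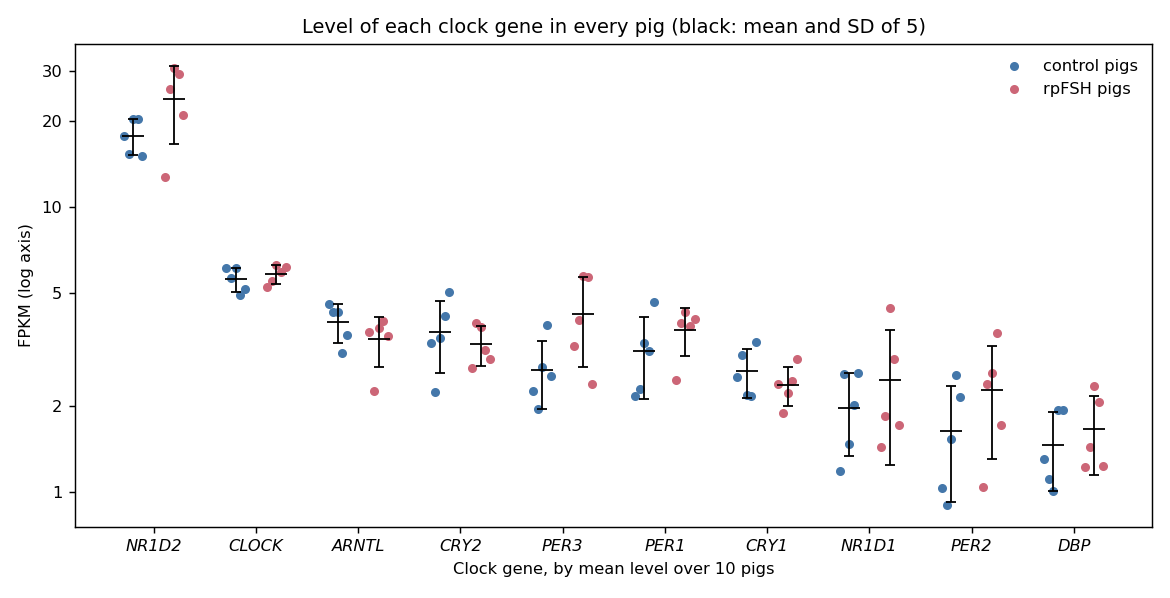
FPKM on a log axis of the 10 clock genes in every pig, in order of the mean over 10 pigs, with control pigs in blue, rpFSH pigs in red, and black bars for the mean and SD of the 5 pigs of a group. NR1D2 lay above all other clock genes in every pig, and the groups overlapped for all 10 genes.

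The clock genes also differed in how much they varied from pig to pig. CLOCK was the steadiest, with a 1.27-fold range of FPKM and an SD of 0.16 on the scale of log2 CPM (counts scaled to the size of the library), and only 4.65% of tested mRNAs had a smaller SD. CRY1 and ARNTL had SDs of 0.21 and 0.27, below which lay 13.1% and 24.2% of mRNAs. PER2 was the most variable, with a 4.00-fold range and an SD of 0.69 that exceeded those of 71.0% of mRNAs. NR1D1 and PER3 came next, with 3.72-fold and 2.91-fold ranges and SDs of 0.58 and 0.57. The SDs of CRY2, PER1, DBP and NR1D2 were between 0.33 and 0.47.

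The loci were placed on Sscrofa11.1, and some held more than the clock gene. CLOCK (chromosome 8, 54788863 to 54910122), ARNTL (chromosome 2, 45894366 to 46025072), PER1 (chromosome 12, 53341329 to 53376723) and PER2 (chromosome 15, 137793326 to 137837054) were on the minus strand. PER3 (chromosome 6, 68487640 to 68548721), CRY1 (chromosome 5, 13275541 to 13364594), NR1D1 (chromosome 12, 22263709 to 22275515) and NR1D2 (chromosome 13, 10757014 to 10791215) were on the plus strand. The CRY2 locus (chromosome 2, 16563717 to 16611755, minus strand) was named for MAPK8IP1, a JNK scaffold gene, as well as CRY2. The DBP locus (chromosome 6, 53986958 to 54024826, minus strand) was named for DBP and CA11, a carbonic anhydrase-related gene, and also ran over NTN5 and FUT2A in the RefSeq annotation of the same build. The values of these 2 loci therefore could not be assigned to the clock gene alone. The NR1D1 locus overlapped the RefSeq span of THRA, a thyroid hormone receptor gene, at its higher-coordinate end, and the PER1 locus reached 20534 bp past the RefSeq gene. RefSeq PER1 runs from 53361863 to 53376723, which is shorter than the 17.5 kb implied by counts and FPKM. The CLOCK locus ran 4460 bp past RefSeq CLOCK into the span of TMEM165, and the ARNTL locus ran 1271 bp past RefSeq ARNTL to the edge of BTBD10. Values of the PER1, NR1D1, CLOCK and ARNTL loci could therefore also hold reads from outside the clock gene.

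The first comparison asked whether the clock transcripts differed between the rpFSH and control ovaries. None of the 10 clock genes passed an adjusted p of 0.05 in edgeR's quasi-likelihood test with Benjamini-Hochberg adjustment, and neither did any of the 15170 mRNAs tested (0%). DESeq2 called 86 mRNAs at an adjusted p under 0.05 (0.567%), none of them a clock gene, for which the smallest DESeq2 adjusted p was 0.454. At an unadjusted edgeR P under 0.05, 1 of 10 clock genes was called, PER3, against 717 mRNAs or 4.73% of all tested. By DESeq2 at an unadjusted P under 0.05 it was 1 of 10, again PER3, against 6.04% of all mRNAs, and by limma on log2(FPKM + 1) 1 of 10, PER3, against 3.03%. In the higher direction edgeR called 1 of 10 against 1.52% of all mRNAs, and in the lower direction 0 of 10 against 3.21%. With a log2 ratio of the group means beyond 1 in either direction as a further condition, edgeR called 0 of 10 clock genes against 3.12% of all mRNAs. The groups overlapped for all 10 genes, where over all mRNAs the rpFSH pigs lay wholly above the control pigs for 0.0791% and wholly below for 0.547%.

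Point estimates were above 0 for 7 of 10 clock genes, with a median log2 fold change of 0.30 (rpFSH against control), while 48.3% of all mRNAs were above 0 with a median of -0.01. The 6 genes of the PER, NR1D and DBP groups were all above 0, with a median of 0.45. CLOCK was close to 0, and ARNTL, CRY1 and CRY2 were slightly below it. The 6 genes were measured in the same pigs and were put together across roles with their values known. They leave out the CRY genes, which the dimer also switches on. Among the 5 PER and CRY genes, 3 estimates were above and 2 below 0. The common sign of the 6 is therefore a description only.

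The activators were nearly level between groups. CLOCK was at 6.14, 5.66, 6.09, 4.94 and 5.16 FPKM in control replicates 1 to 5 and at 5.24, 5.49, 6.28, 5.94 and 6.17 FPKM in rpFSH replicates 1 to 5. Its group means were 5.60 ± 0.540 and 5.83 ± 0.445 FPKM, and its log2 fold change of 0.13 had a 95% interval from -0.15 to 0.40 (edgeR unadjusted P = 0.327). The groups overlapped over most of their range. ARNTL was at 4.58, 4.30, 4.29, 3.08 and 3.56 FPKM in the control pigs and at 3.66, 2.26, 3.75, 3.99 and 3.53 FPKM in the rpFSH pigs. None of the 5 rpFSH pigs exceeded the control median of 4.29 FPKM, and rpFSH replicate 2 was below every control pig. The log2 fold change of ARNTL was -0.14 (95% interval -0.54 to 0.26, edgeR unadjusted P = 0.454), so the groups did not differ beyond their spread.

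The PER genes, which encode repressor subunits that the dimer switches on, had estimates above 0 for all 3 members, with PER3 and PER2 the highest of the 10 clock genes. PER3 was at 2.27, 1.97, 2.75, 3.86 and 2.55 FPKM in control replicates 1 to 5 and at 3.25, 4.04, 5.72, 5.69 and 2.40 FPKM in rpFSH replicates 1 to 5. The rpFSH replicates 2, 3 and 4 were above every control pig, and rpFSH replicate 5 was below the control median. Control replicates 3, 4 and 5 lay within the rpFSH range. Group means were 2.68 ± 0.722 and 4.22 ± 1.47 FPKM, and the log2 fold change was 0.73 ± 0.27 (SE), or 1.65-fold, with a 95% interval from 0.12 to 1.33. Its unadjusted P was 0.0231 in edgeR, the adjusted p over all mRNAs was 0.981, and the exact permutation p on FPKM was 0.0794, so PER3 failed the correction. Its unadjusted P rose to 0.0630 without rpFSH replicate 3 and to 0.0551 without rpFSH replicate 4. Without control replicates 2 and 5, the pigs with the highest ciliated markers, the log2 fold change was 0.59 (unadjusted P = 0.0998), and without the 3 pigs highest in luteal markers it was 0.60 (unadjusted P = 0.0973). Control replicates 2 and 5 were also the lowest and the highest of the 10 pigs for smooth muscle markers.

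PER2 was at 1.04, 0.904, 1.54, 2.59 and 2.16 FPKM in the control pigs and at 1.05, 2.40, 2.61, 3.62 and 1.72 FPKM in the rpFSH pigs. The lowest 3 pigs came from both groups, control replicates 1 and 2 and rpFSH replicate 1, and the highest was rpFSH replicate 4. The log2 fold change of 0.55 had an interval from -0.28 to 1.37 (edgeR unadjusted P = 0.171), the widest of the 10 genes, and was 0.34 (unadjusted P = 0.393) without rpFSH replicate 4. PER1, which responds quickly to hormones through cAMP and glucocorticoid elements, was at 2.18, 2.31, 3.35, 3.12 and 4.65 FPKM in the control pigs and at 2.48, 3.91, 4.29, 3.83 and 4.06 FPKM in the rpFSH pigs. The highest PER1 value was that of a control pig, replicate 5, and 4 of 5 rpFSH pigs were above the control median. Its log2 fold change was 0.33 (95% interval -0.17 to 0.84, edgeR unadjusted P = 0.176). Without control replicate 5 the estimate was 0.49 and the unadjusted P 0.0465 (adjusted p = 0.999 in edgeR), and without control replicate 1 they were 0.22 and 0.371.

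The CRY genes, which encode the main partners of the PER proteins in repression, were close to level between the groups. CRY1 ranged from 2.17 to 3.36 FPKM in the control pigs (median 2.54) and from 1.90 to 2.93 FPKM in the rpFSH pigs (median 2.39), with a log2 fold change of -0.09 (95% interval -0.46 to 0.28). CRY2 was at 3.35, 2.25, 3.47, 4.14 and 5.03 FPKM in the control pigs and at 2.73, 3.94, 3.79, 3.17 and 2.92 FPKM in the rpFSH pigs. Both extremes of CRY2 were control pigs, replicates 2 and 5, and the log2 fold change was -0.06 (95% interval -0.52 to 0.41). The sign was not stable for either gene, as CRY1 was at 0.12 without control replicates 2 and 5, and CRY2 at 0.063 without control replicate 5 and at 0.015 without rpFSH replicate 1.

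Of the REV-ERB receptors, NR1D2 came closest to the threshold. It was at 17.7, 15.4, 20.4, 20.3 and 15.1 FPKM in control replicates 1 to 5 and at 12.7, 25.9, 30.8, 29.3 and 21.0 FPKM in rpFSH replicates 1 to 5. The rpFSH group split, with 4 pigs above every control pig and rpFSH replicate 1 below every control pig. Means were 17.8 ± 2.57 and 24.0 ± 7.31 FPKM, and the log2 fold change of 0.50 ± 0.24 (SE) had an interval from -0.03 to 1.04 (edgeR unadjusted P = 0.0624, exact permutation p = 0.111). Without rpFSH replicate 1 it was 0.68 with an unadjusted P of 0.00240 (adjusted p = 0.913 in edgeR). It was 0.39 (unadjusted P = 0.151) without rpFSH replicate 3 and 0.38 (unadjusted P = 0.213) without control replicates 2 and 5. Replicate 1 was also the rpFSH pig with the highest luteal sum, and without the 3 pigs highest in luteal markers the NR1D2 estimate was 0.59 (unadjusted P = 0.0159), in a fit of 4 control and 3 rpFSH pigs. Whether luteal tissue had a part in its low value was not tested.

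NR1D1 was at 1.19, 2.61, 1.48, 2.03 and 2.61 FPKM in the control pigs and at 1.44, 1.85, 4.43, 2.93 and 1.72 FPKM in the rpFSH pigs. One pig, rpFSH replicate 3, stood above the rest. The log2 fold change was 0.41 (95% interval -0.35 to 1.16, edgeR unadjusted P = 0.261), and it was 0.07 without that pig and 0.27 without control replicate 1. It was 0.74 (unadjusted P = 0.0955) without control replicates 2 and 5. DBP was at 1.31, 1.11, 1.01, 1.95 and 1.94 FPKM in the control pigs and at 1.23, 1.45, 2.35, 2.08 and 1.23 FPKM in the rpFSH pigs, with rpFSH replicates 3 and 4 highest. Its log2 fold change was 0.27 (95% interval -0.32 to 0.85, edgeR unadjusted P = 0.336), and 0.10 without rpFSH replicate 3.

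**Figure D2:**
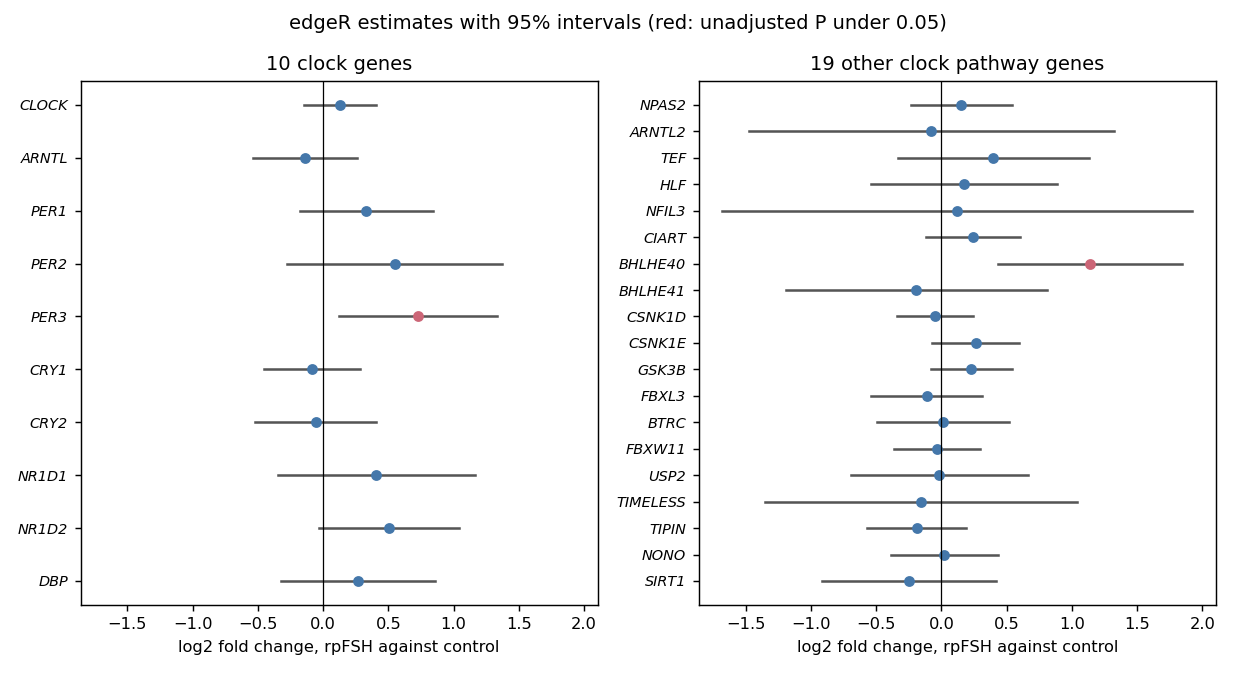
Log2 fold changes of rpFSH against control from edgeR, with 95% intervals as horizontal lines, for the 10 clock genes (left) and 19 of the 22 other clock pathway genes tested (right). Red points, PER3 and BHLHE40, had an unadjusted P under 0.05, and neither passed the adjustment over all mRNAs (both adjusted p = 0.981).

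The same pigs tended to be high or low for the whole PER, NR1D and DBP group, which was put together with its values known. The rpFSH replicate 3 ranked in the top 2 of 10 pigs for 6 of these 6 genes, and rpFSH replicate 4 for 5 of 6. Control replicate 2 and rpFSH replicate 1 each ranked in the bottom 3 for 5 of 6 genes, and control replicate 1 for 4 of 6. On the log2 CPM scale, the mean deviation of the 6 genes from their 10-pig means ran from -0.54 in control replicate 1 to 0.76 in rpFSH replicate 3. Within the rpFSH group alone it ran from -0.46 in replicate 1 to 0.76, so the pigs of the rpFSH group alone covered most of this range. ARNTL was above its mean in control replicates 1 and 2, which were low for the 6 genes, but also in rpFSH replicates 3 and 4, which were high for them, and in control replicate 3, and it was lowest in rpFSH replicate 2. Control replicate 2 and rpFSH replicate 1 had the highest luteal sums (2473 and 1359 FPKM), while rpFSH replicate 4, high for the 6 genes, came next at 328 FPKM, and control replicate 1, low for them, was at 40.4 FPKM. The part of luteal tissue in this pattern was not tested.

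**Figure D3:**
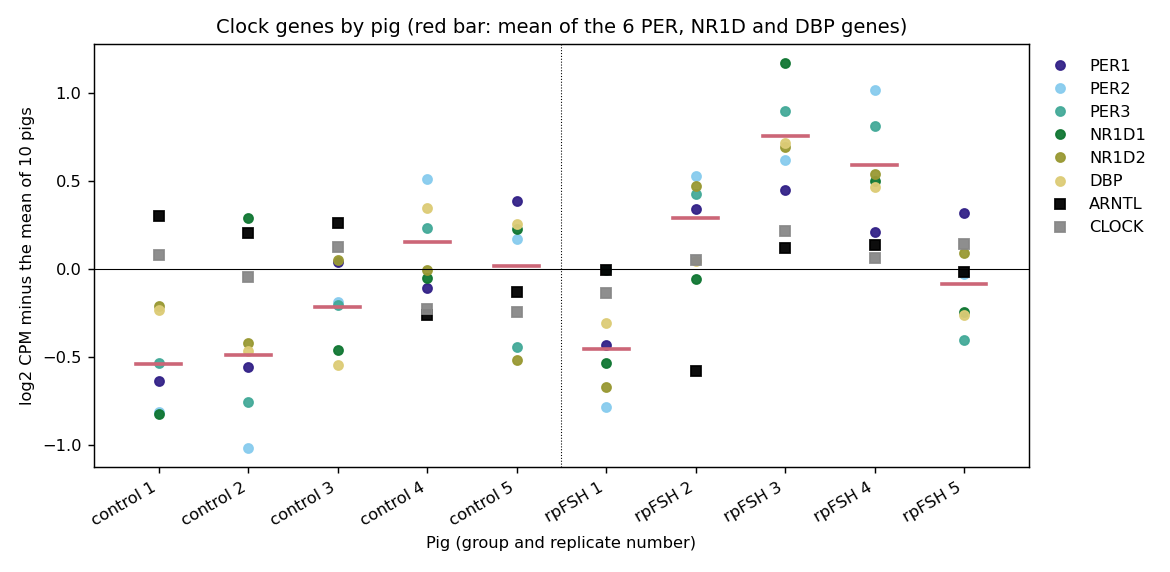
Log2 CPM of 8 clock genes minus their mean over 10 pigs, with circles for PER1, PER2, PER3, NR1D1, NR1D2 and DBP, squares for ARNTL and CLOCK, and a red bar for the mean of the 6 genes in each pig. The red bar was highest in rpFSH replicate 3 (0.76) and lowest in control replicate 1 (-0.54), while CLOCK stayed closer to 0.

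The second comparison asked which clock genes varied together over the 10 pigs. Of the 45 pairs, 0 reached an adjusted permutation p under 0.05 by Pearson's r (smallest adjusted p = 0.0835) or by Spearman's rho (smallest adjusted p = 0.0999). At an unadjusted permutation p under 0.05 there were 10 pairs by Pearson's r, all positive, and 9 after each group was centred on its own mean. The share of all mRNA pairs with such a p was not computed, so these counts have no background. Across the 10 pairs, the number of tested mRNAs with as high an r with 1 gene of the pair ran from 37 to 746. The lowest was for PER3 in its pair with PER2, and the highest for CRY2 in its pair with PER2. The 10 pairs had been picked by their r, so low numbers follow in part from that choice. PER2 and PER3 had r = 0.81 (permutation p = 0.00578) and rho = 0.87 (permutation p = 0.00222). PER2 and DBP had r = 0.81 (permutation p = 0.00591) and rho = 0.83 (permutation p = 0.00456), and PER1 and PER2 had r = 0.81 (permutation p = 0.00669) and rho = 0.75 (permutation p = 0.0171). After the 2 pigs farthest from the PER2 median were left out, r was 0.67 for PER2 with PER3 and 0.74 for PER2 with DBP. Of tested mRNAs, 0.850% had an r of at least 0.77 with PER2, and the median r of PER2 with all mRNAs was -0.01. PER2 is in the highest pairs, and neither it nor the limit of 0.77 was set beforehand. The share is therefore a description and no background for the pairs.

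PER1, PER2, PER3, NR1D1, NR1D2 and DBP had been put together with their values known, so their pairs are given as a description. All 15 pairs among them had a positive r, from 0.54 to 0.81 with a median of 0.62. PER3 with NR1D2 (r = 0.78, permutation p = 0.00931), PER2 with NR1D2 (r = 0.78, permutation p = 0.0103) and PER3 with DBP (r = 0.77, permutation p = 0.0111) were the next highest. Some of these rested on the 2 pigs with the highest values. Without rpFSH replicates 3 and 4, r fell to 0.53 for PER3 with NR1D2, to 0.47 for PER3 with DBP and to -0.06 for PER3 with NR1D1. With rpFSH replicates 1 and 3, the farthest from the NR1D2 median, left out instead, r of PER3 with NR1D2 was 0.87. The number of pairs with an adjusted p under 0.05 depended on single pigs, with 4 pairs without control replicate 5, 2 without rpFSH replicate 1, 1 without control replicate 2, and 0 without any other single pig (exact permutation over 9 pigs).

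ARNTL did not share this pattern. Its r with the 6 genes was negative for 6 of 6, from -0.44 with PER2 to -0.06 with NR1D1, and the smallest adjusted permutation p was 0.392. The values of ARNTL and CLOCK had r = 0.37 (permutation p = 0.299) and rho = 0.44 (permutation p = 0.204). CLOCK correlated best with NR1D2 (r = 0.67, permutation p = 0.0360, adjusted p = 0.182, and rho = 0.70, permutation p = 0.0307, adjusted p = 0.230). With PER1, PER2 and PER3, CRY2 had r = 0.66, 0.65 and 0.40, and CRY1 had r = -0.02, -0.34 and -0.61. With DBP, NR1D2 and NR1D1, CRY2 had r = 0.60, 0.36 and 0.20. CRY2 was not among the 6 genes, but its r with PER1, PER2 and DBP lay within the range of their 15 pairs. The difference between the CRY genes was not tested. None of these passed the adjustment over 45 pairs.

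**Figure D4:**
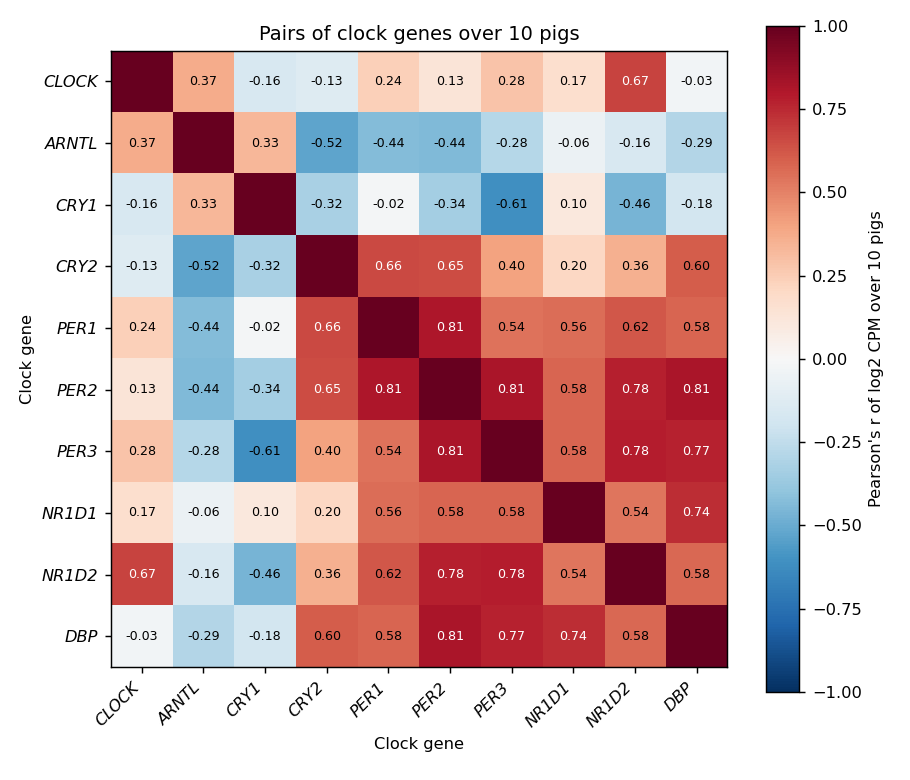
Pearson's r of log2 CPM over 10 pigs for the 45 pairs of clock genes, from -1 (blue) to 1 (red), with r printed in each cell. The 15 pairs among the PER, NR1D and DBP genes, put together with their values known, ran from 0.54 to 0.81. ARNTL was negative with all 6 of them. CRY2 was also within that range with PER1, PER2 and DBP, but lower with PER3, NR1D2 and NR1D1.

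Outside the clock set, 11286 mRNAs with a mean of at least 1 FPKM were ranked by their r with ARNTL, PER1 and DBP over the 10 pigs, as a description. ARNTL was most like ZNF322, a zinc finger gene (r = 0.92), TXNIP, the thioredoxin-binding arrestin (r = 0.88), PLEKHF1 (r = 0.86), ENSSSCG00000038260 (r = 0.85) and RASL10B (r = 0.83). PER1 was most like NFATC4, a calcineurin-regulated transcription factor (r = 0.96), ENSSSCG00000027852 (r = 0.93), TEAD3, a transcription factor of the Hippo pathway (r = 0.92), the SLIT3 locus (r = 0.91) and the RBPMS locus (r = 0.90). DBP was most like ZNF710 (r = 0.92), TSPAN11, a tetraspanin gene (r = 0.92), the FBXL13 locus (r = 0.89), DNASE1 (r = 0.89) and ARAP1 (r = 0.88). These are the highest of many values, and no other clock gene was eligible for the ranking.

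The other genes of the clock pathway showed no common shift. Of 23 listed, 22 were found and tested, with 10 estimates above and 12 below 0 and a median log2 fold change of -0.02. BHLHE40 (DEC1), an E-box-binding repressor of the loop that many hormones induce, was the 1 gene of 22 with an unadjusted P under 0.05, where 4.73% of all mRNAs had one. It was at 2.72, 4.00, 1.77, 1.55 and 2.56 FPKM in control replicates 1 to 5 and at 5.19, 2.30, 6.49, 5.50 and 6.95 FPKM in rpFSH replicates 1 to 5. Every rpFSH pig but replicate 2 was above every control pig. Means were 2.52 ± 0.966 and 5.29 ± 1.81 FPKM, the log2 fold change was 1.14 ± 0.32 (SE), or 2.20-fold, and the unadjusted edgeR P was 0.00475 (adjusted p = 0.981, exact permutation p = 0.0317), so BHLHE40 also failed the correction.

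Among the other pathway genes, the PAR bZIP relatives of DBP, TEF and HLF, had log2 fold changes of 0.40 and 0.17, and NFIL3, which opposes DBP at the same elements, 0.12. CSNK1E, a kinase that marks PER proteins for degradation, was at 3.07 ± 0.344 and 3.51 ± 0.488 FPKM, with 4 of 5 rpFSH pigs above every control pig and a log2 fold change of 0.26 (edgeR unadjusted P = 0.109). SIRT1, a deacetylase acting on the loop, was at 5.05 ± 1.61 and 4.05 ± 1.25 FPKM (log2 fold change -0.25, edgeR unadjusted P = 0.433), in a locus that carries a second gene name. The CLOCK paralog NPAS2 was at 0.15 and the ARNTL paralog ARNTL2 at -0.08 on the log2 fold change scale.

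Genes that stimuli such as cAMP, stress and glucocorticoids induce, by routes that also act on PER1, were listed beside the clock. By the feeding days given above, the injection came some days before collection at day 234. A quick response to the dose was therefore not tested. Of 11 listed, 10 were tested, and JUNB was listed at 0 counts in every pig. Point estimates were above 0 for 10 of 10, against 48.3% of all mRNAs, with a median log2 fold change of 0.43. The 10 genes were measured in the same pigs and share inducing stimuli, so their common sign is a description only. The smallest estimate, that of TSC22D3, was 0.01 (edgeR unadjusted P = 0.967). Its mean FPKM was lower in the rpFSH pigs (7.14 against 7.42), so its sign depended on the measure. An unadjusted edgeR P under 0.05 was found for 0 of 10, against 4.73% of all mRNAs. The orphan nuclear receptor NR4A1, an immediate early gene, came closest, at 6.35 ± 3.22 and 10.2 ± 2.21 FPKM (log2 fold change 0.75, edgeR unadjusted P = 0.0622, exact permutation p = 0.0556). Median log2 fold changes were 0.75 for the immediate early genes and 0.23 for the glucocorticoid-induced genes.

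A further 22 unannotated loci in the table were named after a clock gene, 14 of them after ARNTL, 4 after CLOCK, 2 after CRY2 and 1 each after PER1 and PER3. They were examined after the table had been seen. Of these, 21 lay inside the assembled span of the named gene, 10 on the opposite strand and 12 with no strand assigned. None had an unadjusted edgeR P under 0.05, against 6.68% of the 19909 unannotated loci tested and 2.97% in the higher direction, and 9 were above and 13 below 0. Over the 10 pigs, 19 of 22 correlated positively with the named gene, and 9 of 22 had an adjusted permutation p under 0.05 by Pearson's r but only 2 by Spearman's rho. How often loci inside other genes follow them was not computed, so these counts have no background. Without the 2 pigs farthest from the median, r of the 9 ran from 0.04 to 0.90. It was 0.04, 0.37, 0.50 and 0.74 for the 4 of them named after ARNTL.

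The 2 loci that also passed by Spearman's rho lay in PER3 and in ARNTL. The PER3 locus (chromosome 6, 68527987 to 68529827, opposite strand) followed PER3 closely, with r = 0.96 (permutation p = 7e-05, adjusted p = 0.00154), rho = 0.94 (permutation p = 0.00025, adjusted p = 0.0055) and r = 0.90 without the 2 pigs farthest from the median. It was at 1.33, 1.49, 1.66, 2.54 and 1.84 FPKM in the control pigs and at 1.72, 2.70, 3.93, 4.33 and 1.57 FPKM in the rpFSH pigs. As for PER3, rpFSH replicates 2, 3 and 4 were above every control pig, and the log2 fold change of 0.67 missed the threshold (edgeR unadjusted P = 0.0503). The ARNTL locus (chromosome 2, 45997459 to 45999165, no strand) had r = 0.89 (adjusted permutation p = 0.00341) and rho = 0.85 (adjusted permutation p = 0.0322). How the counts treated strand was not given in the sources used here, so reads of a gene and of a locus inside it cannot be told apart. The opposite-strand locus named after PER1 (chromosome 12, 53357112 to 53357379) lay in the assembled PER1 locus but outside RefSeq PER1. It did not follow PER1 (r = -0.13, permutation p = 0.723, rho = -0.19, permutation p = 0.607), and it held at most 40 counts in a pig.

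**Figure D5:**
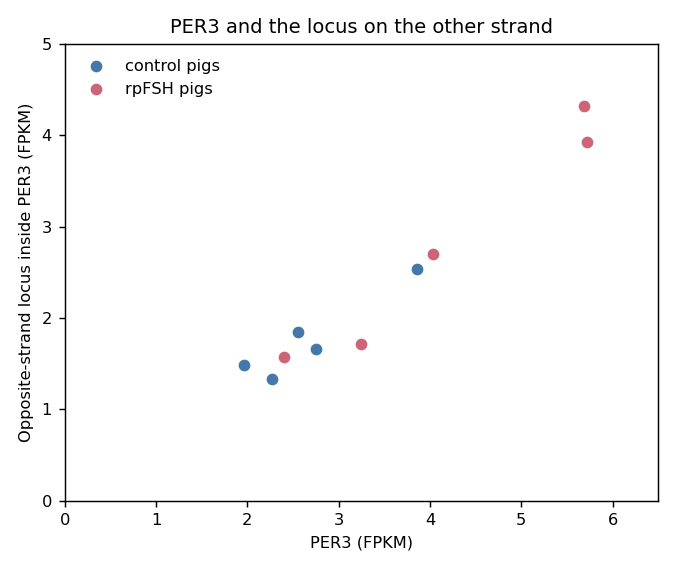
FPKM of PER3 (horizontal) and of the unannotated locus on the opposite strand inside it (vertical) in 5 control (blue) and 5 rpFSH (red) pigs. The points followed a rising line, with rpFSH replicates 3 and 4 at the upper end (5.72 and 5.69 FPKM of PER3) and r = 0.96 on the log2 CPM scale.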

How the data were processed

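Total RNA of ovarian tissue from 5 control and 5 rpFSH gilts was sequenced by the authors, one library per gilt. The study's methods describe rRNA removal and stranded libraries, whereas the labels name poly(A) RNA. Per the labels, the submitters' processing notes name Bowtie 0.12.2, HISAT2 2.0, StringTie 1.3.0 and the build Sscrofa11.1. The authors deposited 1 table of assembled loci with FPKM and read count columns for every gilt, and how the counts were made was not given in the sources used here. Of the FPKM values, 64465 were exactly 0.0001, of which 64464 had a count of 0.

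Groups and replicate numbers were taken from the labels. Protein-coding loci whose FPKM averaged 0.1 or more were kept, and their deposited counts were tested with edgeR 4.0.16 (TMM scaling, quasi-likelihood test, R 4.3.3) and Benjamini-Hochberg adjustment over 15170 loci. Single FPKM values were compared by a two-sided exact permutation test over 252 assignments. Pairs were correlated on log2 CPM (TMM, prior count 2) with 100000 two-sided permutations, adjusted over the 45 pairs or, for unannotated loci, over the 22. Alternatives used DESeq2 1.42.0, limma 3.58.1 on log2(FPKM + 1) and log2(FPKM + 0.1), other scalings and filters, a replicate block, and omitted pigs. The unannotated loci were tested in a fit of their own.

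The text names the 10 clock genes, pathway and inducible genes with an unadjusted P under 0.05, the 4 pathway genes of largest log2 fold change at a mean of 1 FPKM or more where fewer passed (BHLHE40, TEF, CSNK1E and SIRT1), and the 5 mRNAs most like ARNTL, PER1 and DBP. HLF, NFIL3, NPAS2, ARNTL2, NR4A1, TSC22D3 and the unannotated loci were named after their values were seen. Of the listed genes, FBXL21, FOXL2 and HSD3B1 were not matched, and the single values of 3 further pathway genes are not reported here. The members and gene lists were chosen with earlier results of these data known. Columns of the authors' annotation were used for names only.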

Additional observations from a re-analysis of the deposited data

Results flagged for a closer look

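For 3 of the 28 gene and group sets examined (14 genes in each group of 5), the lowest pig lay farther from the others than Dixon's 95% limit of 0.71 of the group's range. About 1 in 20 sets would be so by chance. ARNTL was at 2.26 FPKM in rpFSH replicate 2, where the nearest rpFSH pig was at 3.53 FPKM, and without that pig the log2 fold change of ARNTL was -0.03. PER1 was at 2.48 FPKM in rpFSH replicate 1, with the nearest pig at 3.83 FPKM. CSNK1E, the PER kinase, was at 2.65 FPKM in the same pig, with the nearest at 3.56 FPKM.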

How the results depend on the processing

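Of 210 single-gene fold changes of the 10 clock genes under 21 alternatives, 200 kept their direction and their side of an unadjusted P of 0.05. PER3 had an unadjusted P under 0.05 in 17 of 21 alternatives and an adjusted p of 0.454 or more in all. Without single pigs the number of clock genes with an unadjusted P under 0.05 ran from 0 to 2. It was 0 without rpFSH replicate 3 or 4, 2 without control replicate 5 (PER1 and PER3) or rpFSH replicate 1 (PER3 and NR1D2), and 0 without control replicates 2 and 5. Without the 3 pigs highest in luteal markers (an alternative chosen after seeing the data, as were those without PER1 and without CRY2 and DBP) it was 1, but NR1D2 in place of PER3. The estimates with a changed sign were 0.12 for CRY1 without control replicates 2 and 5, and 0.063 and 0.015 for CRY2 without control replicate 5 and without rpFSH replicate 1, within a range of -0.19 to 0.063 for CRY2 without single pigs. The number of correlated pairs ran from 0 to 4 without single pigs and was 2 without control replicates 2 and 5. The 717 mRNAs with an unadjusted P under 0.05 became 373 at a mean of at least 1 FPKM, where fewer genes were tested, 460 with limma on log2(FPKM + 1), 477 without the 3 luteal-high pigs, 1035 without control replicates 2 and 5, 368 with the replicate block, and 564 to 798 without single pigs. The cause of the values with limma, the block or omitted pigs was not tested. Same-numbered pigs did not deviate together (r from -0.29 to -0.03 over 5 pairs), but this cannot show whether the pigs had been matched by design. PER3 remained the 1 clock gene with an unadjusted P under 0.05 with the block. Every clock gene had at least 455 counts in every pig, and the parts of counting error and of spread between pigs in the intervals were not separated.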

Other observations

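NFIL3, the repressor that competes with DBP, was chosen for this remark after its values were seen. It had 12 counts (0.0565 FPKM) in rpFSH replicate 2 and from 673 to 2527 counts in the other 9 pigs, and its level in rpFSH replicate 5 was 12.9 FPKM, the highest. The pig with almost no NFIL3 counts was also the lowest of 10 for ARNTL and for CRY1, while its PER2, PER3 and NR1D2 values were among the higher ones.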
